A study of Arabidopsis thaliana with 12 samples.

Results

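The genes described here make flavonoids and the condensed tannins of the seed coat in *Arabidopsis thaliana*. They are 10 loci of the pathway, and each was to be measured by the probe set (the group of short oligonucleotides that reports 1 transcript) that names it alone and has the highest mean signal. A probe set was tied to a locus through the annotation of the array or, failing that, through the study's own table of called genes. Only 2 of the 10 loci could be tied to a probe set in this way, *TT3* (AT5G42800) and *BAN* (AT1G61720), both through the annotation, each with a single probe set, out of 13746 loci with a named probe set and 22746 Arabidopsis probe sets tested. The other 8 were not analysed here: *TT4* (AT5G13930), chalcone synthase; *TT5* (AT3G55120), chalcone isomerase; *F3H* (AT3G51240), a flavanone hydroxylase; *TT7* (AT5G07990), which hydroxylates the flavonoid B ring; *LDOX* (AT4G22880), the dioxygenase that makes anthocyanidins; *TT12* (AT3G59030), a transporter of tannin precursors into the vacuole; *TT10* (AT5G48100), a laccase that oxidises tannins; and *FLS1* (AT5G08640), flavonol synthase. What follows therefore describes both reductases of the tannin branch in depth and says nothing of the early steps.

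RNA was hybridised to 12 Affymetrix ATH1 arrays in 4 groups of 3. WT plants were Col-0, and AtHb1 plants were T3 plants of 1 transgenic line in which the Arabidopsis hemoglobin gene *AtHb1* was placed behind LeB4, a promoter active mainly in seeds. Whole plants, 45 days old, stood for 1 h in darkness in air with 21% oxygen (control) or in a gas mix with 10.5% oxygen (hypoxia), so the dark period was common to all groups. Siliques in the middle of seed maturation were then pooled, about 70 to 80 for each biological replicate, so every value mixes embryo, endosperm, seed coat and silique wall. Values are log2 signals, on which 1 unit is a 2-fold difference, and means are given ± SD with n = 3. In such mixed tissue, fewer cells of a type and less RNA per cell cannot be told apart, and with 1 line an effect of the transgene and an effect of that line cannot be told apart.

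Flavonoids start from a chalcone, which is turned into dihydroflavonols. Dihydroflavonol reductase, encoded by *TT3*, takes these into the branch that leads to anthocyanins and tannins, in competition with the synthase that makes flavonols. Anthocyanidin reductase, encoded by *BAN*, turns anthocyanidins into flavan-3-ols, the building blocks of condensed tannins. In seeds these tannins are laid down in the innermost layer of the seed coat and give the coat its brown colour when oxidised, and mutants of either gene have an altered seed colour.

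The first question was whether seed-driven *AtHb1* went with a different level of the reductases. *TT3* read 11.59, 11.59 and 11.40 in the WT control arrays and 10.54, 10.35 and 10.47 in the AtHb1 control arrays. Under hypoxia it read 11.57, 11.65 and 11.64 in WT and 10.62, 10.43 and 10.68 in AtHb1. All 6 AtHb1 values lay below all 6 WT values, and the genotypes did not overlap in either treatment. *TT3* fell in AtHb1 by 1.08 on the log2 scale at control (SE 0.09, 2.11-fold, limma adjusted p = 1.18e-06) and by 1.04 under hypoxia (SE 0.09, 2.06-fold, adjusted p = 1.60e-06). Without AtHb1 hypoxia replicate 2, the lowest array of its group, the hypoxia difference was -0.97 and no longer reached the 2-fold limit.

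*BAN* read 12.10, 12.06 and 12.08 in WT control and 11.34, 10.98 and 11.24 in AtHb1 control. Under hypoxia it read 12.37, 12.46 and 12.47 in WT and 11.24, 11.40 and 11.45 in AtHb1. Again every AtHb1 array lay below every WT array. Under hypoxia *BAN* was lower in AtHb1 than in WT by 1.07 on the log2 scale (SE 0.09, 2.1-fold, adjusted p = 1.92e-06). At control it was lower by 0.89 (SE 0.09, 1.86-fold, adjusted p = 7.05e-06), which passed the adjusted p but stayed under the 2-fold limit. None of the genotype differences of *TT3* and *BAN* passed when the 3′ minus 5′ signal of the array's control transcripts, which does not overlap between genotypes, entered as a covariate.

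**Figure D1:**
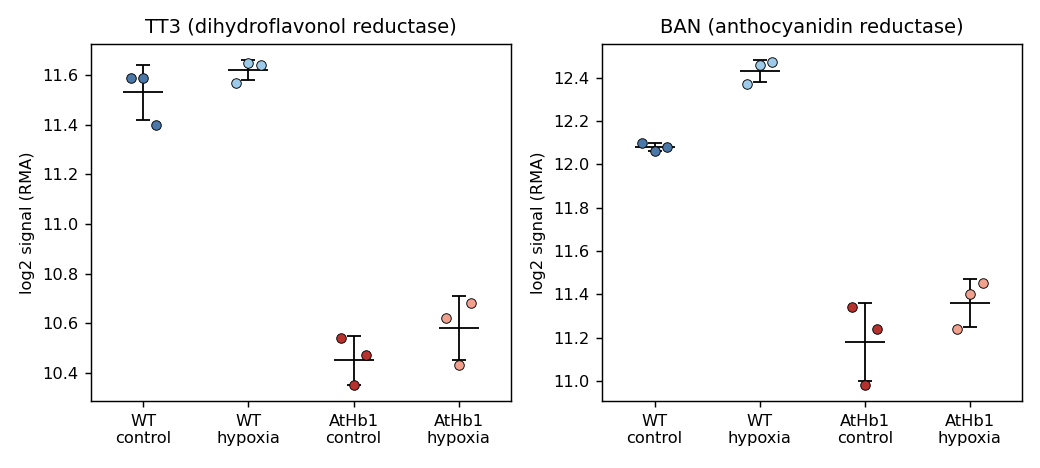
Log2 signal (RMA) of *TT3* (left) and *BAN* (right) in each of the 12 arrays, by group; points are arrays, horizontal bars are means and whiskers are ± SD (n = 3), and the axes do not start at 0. The AtHb1 arrays sit between 10.35 and 10.68 for *TT3* and between 10.98 and 11.45 for *BAN*, below all WT arrays of the same gene.

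The word called is used for a difference above 2-fold with an adjusted p under 0.05. By that rule 1 of the 2 reductases was called lower at control and 2 of 2 under hypoxia, where 0.972% and 0.95% of all tested probe sets were called lower. Without the fold limit both passed in both treatments, beside 15.7% of all probe sets lower at control and 18.3% under hypoxia. Neither was called higher, beside 1.2% of all probe sets at control and 0.791% under hypoxia, or 17.5% and 22.3% without the fold limit. When each array was centred on its own median, the calls over all probe sets under hypoxia changed from 180 higher and 216 lower to 131 higher and 253 lower, while *TT3* (-1.12) and *BAN* (-1.15) stayed called. Of all probe sets, 181 had a more negative genotype difference than *TT3* at control and 189 under hypoxia, and for *BAN* 304 and 176 did. The middle 50% of probe sets lay between -0.16 and 0.16 at control and between -0.18 and 0.21 under hypoxia. The observed genotype difference, as the mean over both treatments, was -1.06 for *TT3* and -0.98 for *BAN*. Against all 400 arrangements of the genotype labels within each treatment, each had an exact two-sided permutation p = 0.005, the smallest this design can give. Within 1 treatment, 3 arrays against 3 cannot give an exact p below 0.1. A lack of overlap within 1 treatment is therefore a description, and its share over all probe sets is not given here. Nothing in the labels says which plants went into which pool, so the p-values measure the spread between these samples.

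**Figure D2:**
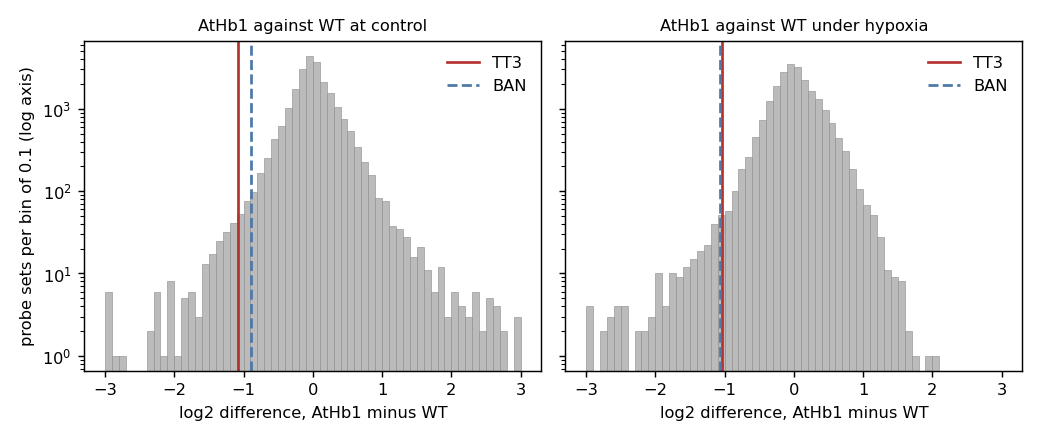
Distribution of the log2 difference, AtHb1 minus WT, over all 22746 tested probe sets at control (left) and under hypoxia (right), in bins of 0.1 with a log count axis; values beyond the axis are put in the end bins. Vertical lines mark *TT3* (solid; -1.08 and -1.04) and *BAN* (dashed; -0.89 and -1.07), both in the sparse lower tail.

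The next question was whether 1 h of low oxygen moved the reductases. In WT, *BAN* rose under hypoxia from 12.08 ± 0.02 to 12.43 ± 0.05, with all hypoxia arrays above all control arrays, a difference of 0.35 (SE 0.09, adjusted p = 0.0138) that is below 2-fold. In AtHb1 it was 11.18 ± 0.18 at control and 11.36 ± 0.11 under hypoxia. That difference of 0.18 did not pass the test (adjusted p = 0.172, 95% interval -0.02 to 0.37), and the groups overlapped. *TT3* was 11.53 ± 0.11 and 11.62 ± 0.04 in WT, a difference of 0.09 (adjusted p = 0.534, 95% interval -0.09 to 0.28). In AtHb1 it was 10.45 ± 0.10 and 10.58 ± 0.13, a difference of 0.12 (adjusted p = 0.316, 95% interval -0.06 to 0.31). None of these 3 intervals reaches a 2-fold change.

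Neither reductase was called for hypoxia in either genotype. Over all probe sets, 1.53% were called higher and 0.29% lower in WT, and 0.673% higher and 0.444% lower in AtHb1. Without the fold limit, 8.7% passed as higher and 7.13% as lower in WT, with *BAN* among the former, and 12.6% and 9.51% passed in AtHb1. Whether the hypoxia responses differed between genotypes was tested as an interaction. For *TT3* the response in AtHb1 minus that in WT was 0.03 (SE 0.12, adjusted p = 0.903, 95% interval -0.23 to 0.29), and for *BAN* -0.18 (SE 0.13, adjusted p = 0.413, 95% interval -0.45 to 0.09). So *BAN* passed in WT and not in AtHb1, but the test of a difference between these responses did not pass.

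Profiles over the 12 arrays were compared as the root mean square difference after each probe set's own mean was subtracted. For *BAN*, the nearest of the other 13895 single-gene probe sets was *TT3*, at 0.138 log2 units against an SD of 0.519 for *BAN* itself. The next were AT3G56200 (0.142) and *ATR2* (AT4G30210, 0.15), the reductase that passes electrons to cytochrome P450 enzymes, among them those of the phenylpropanoid pathway. The genotype difference of *ATR2* was -0.90 at control and -1.05 under hypoxia, which is given as a description, since its likeness to *BAN* chose it. For *TT3* the nearest were AT5G42000 and AT5G59515, both at 0.128, then *ChlAKR* (AT2G37770, 0.134), an aldo-keto reductase, with *BAN* in place 4. *ATR2*, *ChlAKR* and AT5G59515 were named only through the study's table of called genes, which was chosen on these samples.

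Beyond the reductases, 40 loci of the pathway were listed and 13 had a named probe set: 9 of 17 further enzymes, transfer and transport genes and 4 of 23 regulators. None of the 9 upstream phenylpropanoid enzymes was analysed here. *TT2*, *TT8* and *TTG1*, which together activate *BAN* in the seed coat, were not analysed here either. At control 1 of the 13 was called lower in AtHb1 and 0 higher, and under hypoxia 1 lower and 0 higher, beside 0.972% lower and 1.2% higher, and 0.95% lower and 0.791% higher, over all probe sets. Without the fold limit 5 were lower and 2 higher at control, beside 15.7% and 17.5% of all probe sets, and 3 lower and 5 higher under hypoxia, beside 18.3% and 22.3%. The call under hypoxia was the regulator *LBD37*, at -1.52 (limma adjusted p = 5.02e-05). *LBD37*, *PAP1* and *PAP2* were named only through the study's table of called genes, so counts that hold them cannot be weighed against the shares over all probe sets. The median genotype difference of the 13 was -0.05 at control and 0.15 under hypoxia, beside -0.01 and 0.00 over all probe sets, while the reductases' medians were -0.98 and -1.06.

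**Figure D3:**
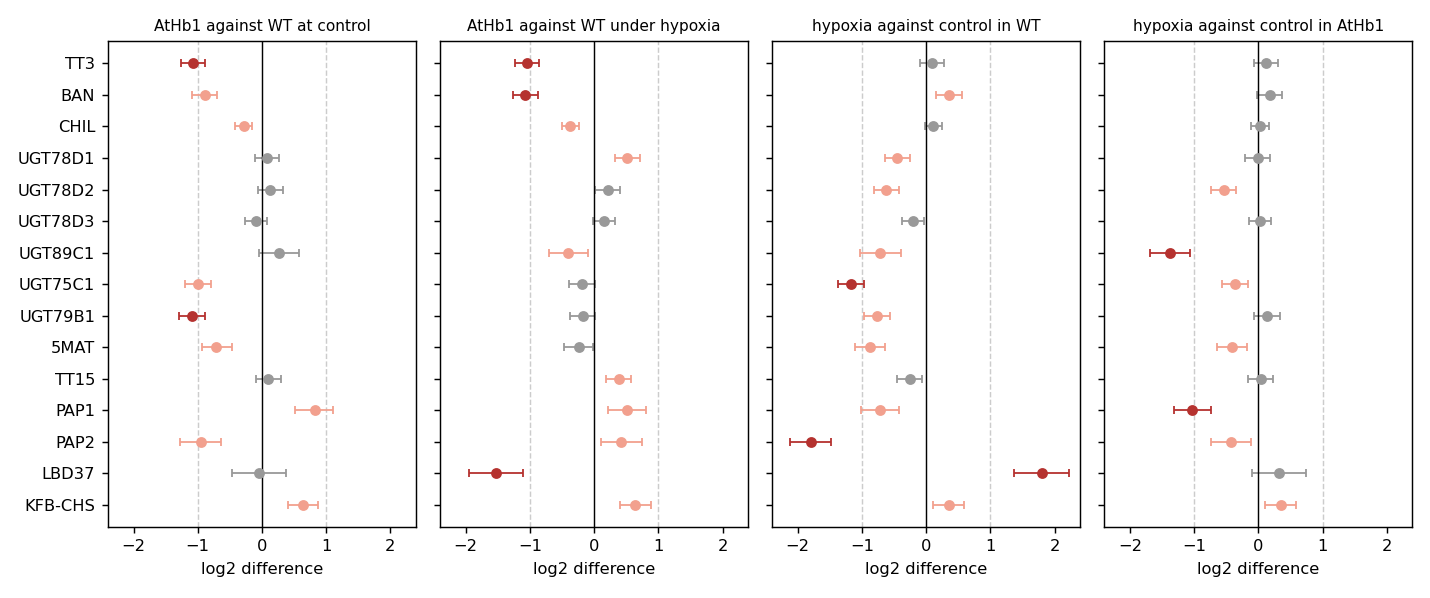
Log2 differences of *TT3*, *BAN* and the 13 other measured pathway genes in 4 comparisons; points are the fitted differences and whiskers their 95% intervals. Dark red marks calls (adjusted p under 0.05, over 2-fold), light red an adjusted p under 0.05 below 2-fold, and grey the rest; dashed lines mark 2-fold. *TT3* and *BAN* sit near -1 in both genotype panels, and *UGT79B1* only in the control panel (-1.09 against -0.18 under hypoxia).

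Genes that decorate anthocyanins act on a branch that also draws on the product of *TT3*. *UGT79B1*, a glycosyltransferase of anthocyanins, read 9.27, 9.32 and 9.32 in WT control, 8.54, 8.52 and 8.54 in WT hypoxia, 8.14, 8.42 and 8.08 in AtHb1 control, and 8.25, 8.54 and 8.28 in AtHb1 hypoxia. All WT control arrays stood above every other array. It fell in AtHb1 by 1.09 at control (SE 0.09, adjusted p = 2.28e-06), and the difference under hypoxia was -0.18 (adjusted p = 0.149). *UGT75C1*, another anthocyanin glycosyltransferase, read 8.25, 8.16 and 8.46 in WT control, 7.14, 7.06 and 7.17 in WT hypoxia, 7.27, 7.44 and 7.17 in AtHb1 control, and 6.90, 7.05 and 6.86 in AtHb1 hypoxia. Here too the WT control arrays stood above every other array. *UGT75C1* fell under hypoxia in WT by 1.17 (SE 0.09, adjusted p = 5.67e-07), and at control it fell in AtHb1 by 1.00 (adjusted p = 3.84e-06), just inside the fold limit and so not called. *5MAT*, which adds a malonyl group to anthocyanins, was likewise highest in WT control, and it fell in AtHb1 at control by 0.71 (adjusted p = 2.03e-04) and under hypoxia in WT by 0.87 (adjusted p = 5.06e-05). Under hypoxia in AtHb1, *UGT75C1* fell by 0.36 (adjusted p = 0.0143) and *5MAT* by 0.41 (adjusted p = 0.0165). *UGT79B1* differed there by 0.14 (adjusted p = 0.306).

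The reductases passed the genotype test in both treatments and neither passed the interaction test. For *UGT79B1* and *UGT75C1* the hypoxia response differed between genotypes, by 0.91 (SE 0.13, adjusted p = 7.64e-04) and 0.81 (SE 0.13, adjusted p = 0.00146), both below 2-fold. For *5MAT* that difference was 0.47 and did not pass (adjusted p = 0.0642).

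The next genes include flavonol glycosyltransferases, which act on finished flavonols, outside the *TT3* branch. *UGT89C1*, a flavonol rhamnosyltransferase, fell under hypoxia in AtHb1 by 1.37 (SE 0.15, adjusted p = 1.95e-05), from 10.13, 9.87 and 9.99 to 8.95, 8.19 and 8.73, with no overlap. In WT it fell by 0.72 (adjusted p = 0.00323), and the difference of the responses, -0.66, did not pass (adjusted p = 0.0518). *UGT78D2*, a flavonoid glucosyltransferase, fell under hypoxia in both genotypes, by 0.62 in WT and 0.54 in AtHb1 (adjusted p = 2.58e-04 and 0.0011). *UGT78D1*, a flavonol rhamnosyltransferase, fell in WT by 0.45 (adjusted p = 0.00246) and differed by -0.01 in AtHb1, and the responses differed by 0.44 (adjusted p = 0.0333), below 2-fold. Under hypoxia *UGT78D1* was higher in AtHb1 than in WT by 0.52 (adjusted p = 3.60e-04). *CHIL*, a non-catalytic partner of chalcone synthase, was lower in AtHb1 than in WT by 0.28 at control and by 0.37 under hypoxia (adjusted p = 0.00287 and 3.81e-04). The genotypes did not overlap in either treatment. *TT15*, a sterol glucosyltransferase whose mutants have pale seeds, differed between genotypes by 0.10 at control (adjusted p = 0.438). Under hypoxia it was higher in AtHb1 than in WT by 0.39 (adjusted p = 0.00365). *UGT78D3*, which attaches arabinose to flavonols, passed no test and lay at log2 signals of 4.75 to 5.11, among the dim probe sets.

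Of the 4 regulators, 3 were named only through the study's table of called genes, so their passing a test is not independent evidence. *PAP2*, a MYB activator of anthocyanin genes, read 9.84, 10.17 and 10.18 in WT control, 8.25, 8.05 and 8.48 in WT hypoxia, 9.02, 9.44 and 8.87 in AtHb1 control, and 8.85, 8.62 and 8.59 in AtHb1 hypoxia. WT control was highest and WT hypoxia lowest. It fell under hypoxia in WT by 1.80 (SE 0.15, adjusted p = 6.71e-07), and the responses differed by 1.38 (SE 0.21, adjusted p = 8.50e-04). Between genotypes it fell in AtHb1 at control by 0.95 (adjusted p = 1.83e-04) and was higher in AtHb1 under hypoxia by 0.42 (adjusted p = 0.0316). *PAP1*, its close relative, was higher in AtHb1 than in WT by 0.82 at control (adjusted p = 4.12e-04) and by 0.51 under hypoxia (adjusted p = 0.00899). *PAP1* fell under hypoxia in AtHb1 by 1.03 (SE 0.14, adjusted p = 1.80e-04), but the difference was -0.89 without AtHb1 control replicate 2, -0.93 without AtHb1 hypoxia replicate 2 and -0.97 without AtHb1 hypoxia replicate 3, each below 2-fold. In WT *PAP1* fell by 0.72 (adjusted p = 0.00211), and the difference of the responses, -0.31, did not pass (adjusted p = 0.353).

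*LBD37*, a repressor of anthocyanin genes that responds to nitrate, read 7.02, 6.54 and 7.63 in WT control, 8.88, 8.95 and 8.76 in WT hypoxia, 6.96, 6.96 and 7.14 in AtHb1 control, and 7.58, 7.06 and 7.39 in AtHb1 hypoxia. WT hypoxia stood above every other array. It rose under hypoxia in WT by 1.80 (SE 0.20, adjusted p = 1.58e-05), and the responses differed by -1.48 (SE 0.28, adjusted p = 0.00414). *KFB-CHS*, an F-box protein that marks chalcone synthase for degradation, rose in AtHb1 by 0.64 in both treatments (adjusted p = 5.46e-04 and 4.75e-04), with no overlap of genotypes. Its interaction was 0.00 (SE 0.16, adjusted p = 0.998).

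**Figure D4:**
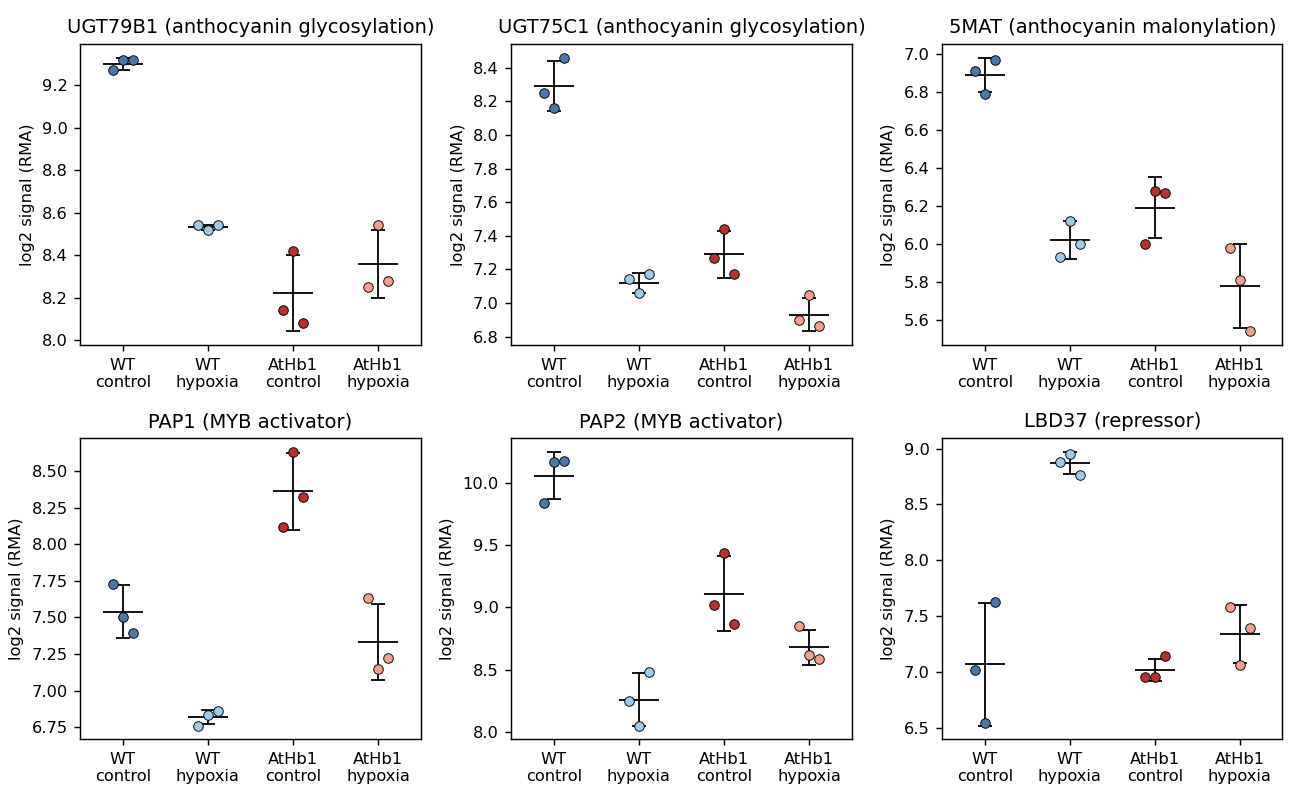
Log2 signal (RMA) in each array of 3 anthocyanin modification genes (top) and 3 regulators (bottom), by group; points are arrays, horizontal bars are means and whiskers are ± SD (n = 3), and the axes do not start at 0. WT control stands above the other groups for *UGT79B1*, *UGT75C1*, *5MAT* and *PAP2*, and WT hypoxia stands above them for *LBD37*.

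For hypoxia, 2 of the 13 pathway genes were called lower and 1 higher in WT, and 2 lower and 0 higher in AtHb1, beside 0.29% lower and 1.53% higher in WT and 0.444% lower and 0.673% higher in AtHb1 over all probe sets. Without the fold limit 8 were lower and 2 higher in WT, beside 7.13% and 8.7% of all probe sets, and 6 lower and 1 higher in AtHb1, beside 9.51% and 12.6%. Their median hypoxia difference was -0.62 in WT and -0.01 in AtHb1, beside -0.03 and 0.00 over all probe sets. In the interaction 1 was called higher and 1 lower, beside 0.497% and 1.51% of all probe sets, and without the fold limit 4 were higher and 1 lower, beside 6.98% and 5.3%. These counts hold *PAP1*, *PAP2* and *LBD37*, which were named only through the study's table of called genes. *PAP2* and *LBD37* were called in WT and in the interaction, and *PAP1* in AtHb1. The counts are therefore a description and cannot be weighed against the shares over all probe sets.

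Both reductases belong to a wider family of short-chain dehydrogenases that also holds cinnamoyl-CoA reductases of lignin synthesis. Of 20 listed relatives 12 were measured, and 0 were called in any of the 5 comparisons. Over all probe sets 0.29% to 1.53% were called in each direction, so 0 of 12 does not set the relatives apart. By the adjusted p alone, 6 of the 12 were lower and 1 higher at control, beside 15.7% and 17.5% of all probe sets, and 4 lower and 1 higher under hypoxia, beside 18.3% and 22.3%. The most negative genotype difference among them was that of AT2G23910, which fell in AtHb1 by 0.80 at control and by 0.86 under hypoxia (adjusted p = 4.37e-06 and 2.62e-06). AT5G14700 fell by 0.80 and by 0.50 (adjusted p = 9.96e-06 and 3.33e-04). The family's median genotype difference was -0.22 at control and -0.15 under hypoxia.

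Several other values moved with genotype. *AtHb1* itself, the transgene's gene, had group means of 6.0 (control) and 9.09 (hypoxia) in WT and of 11.49 (control) and 10.72 (hypoxia) in AtHb1, and its probe set was named only through the study's table. AtHb1 control replicate 1 stood apart, at 10.48 for *AtHb1* beside 12.06 and 11.93. Without that array the control differences were -1.12 for *TT3* and -0.97 for *BAN*. The excess of 3′ over 5′ signal in the control transcripts for actin, GAPDH and ubiquitin, a measure of RNA or label length, was 1.61 to 1.78 log2 units at control and 1.7 to 1.85 under hypoxia in WT, and 2.13 to 2.27 and 2.34 to 2.50 in AtHb1. With it as a covariate *TT3* differed between genotypes by -0.99 at control (adjusted p = 0.168) and -0.92 under hypoxia (adjusted p = 0.523), and *BAN* by -0.79 at control (adjusted p = 0.284) and -0.93 under hypoxia (adjusted p = 0.543). Since the measure does not overlap between genotypes, its part and that of genotype cannot be told apart.

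Markers of the tissues in a silique were few among the named probe sets. Of 7 genes of the outer seed coat and its mucilage 2 were measured. *SBT1.7*, a protease needed for mucilage release, fell in AtHb1 by 0.52 at control and by 0.20 under hypoxia (adjusted p = 1.32e-04 and 0.0467). *PMEI6*, a pectin methylesterase inhibitor of the same layer, differed by -0.05 at control (adjusted p = 0.808). Under hypoxia it was higher in AtHb1 than in WT by 1.00 (adjusted p = 6.19e-05), or by 0.93 without WT hypoxia replicate 1 and 0.97 without AtHb1 hypoxia replicate 2, both below 2-fold. It fell under hypoxia in WT by 1.17 (adjusted p = 2.28e-05), or by 0.98 without WT control replicate 3. In AtHb1 its hypoxia difference was -0.12 (adjusted p = 0.567). *EM1* and *EM6*, 2 of 11 embryo maturation genes, read 6.28, 9.31 and 9.41 and 5.38, 7.45 and 7.46 in AtHb1 control, beside 6.42, 6.56 and 5.11 and 5.13, 5.1 and 5.0 in WT control, so that AtHb1 control replicate 1 lay near WT. Under hypoxia *EM1* differed the other way, by -2.09 (adjusted p = 0.0336) after 2.30 at control (adjusted p = 0.0246). Leaving out single arrays raised the adjusted p above 0.05 for both: at control, WT control replicate 3 (1.84) or AtHb1 control replicate 2 (1.82) or 3 (1.77), and under hypoxia, WT hypoxia replicate 1 (-2.16), 2 (-2.15) or 3 (-1.94) or AtHb1 hypoxia replicate 1 (-1.81) or 2 (-1.60). *EM6* differed by 1.69 at control (adjusted p = 0.00384) and by -0.07 under hypoxia (adjusted p = 0.903). Its means in WT control (5.08), WT hypoxia (5.45) and AtHb1 hypoxia (5.38) lay below 6, the limit used for dim probe sets. *PMEI6*, *EM1* and *EM6* were named only through the study's table of called genes, so their passing a test is not independent evidence. *IKU2*, 1 of 5 endosperm genes, and *ALC*, 1 of 5 genes of the valve margin, passed no test, but *IKU2* lay at 4.96 to 5.60 on every array, among the dim probe sets, so it says nothing of endosperm. None of 8 genes of photosynthetic silique wall was analysed here. The part of tissue proportions in the reductases' difference was not tested.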

How the data were processed

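Siliques of WT and AtHb1 plants were measured at control and under hypoxia, with 3 arrays per group. The authors processed the scans with MAS5 and deposited log2 signals per probe set made with RMA, whose version is not given in the sources used here. The deposited log2 values were used without further normalization. Present calls were not used here. RMA signals of weak probe sets lie near background, so probe sets below 6 in each group were taken as dim.

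Of 22810 probe sets, 64 array controls were set apart and 22746 tested. Annotation entries were matched to loci by gene ID through a RefSeq table (assembly TAIR10.1, used for names alone). It gave 1 gene for 13436 probe sets, several for 503 and a gene outside that table for 77. The study's table named 460 more, and its fold changes and p-values were not used. The other 8270, unnamed here, were tested as well.

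Limma 3.58.1 in R 4.3.3 fitted 1 mean per group over all 12 arrays (lmFit, contrasts.fit, eBayes). Comparisons were AtHb1 against WT in each treatment, hypoxia against control in each genotype, and their interaction. Within a comparison, p-values of all 22746 probe sets received a Benjamini-Hochberg adjustment, and calls needed an adjusted p under 0.05 and an absolute log2 difference above 1. Python 3.11.15 with pandas 2.3.3 read the tables. The code was tested on simulated data.

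Genes were named by rule: the 10 loci; listed genes called in at least 1 comparison, at most 6 per list; and the 3 nearest profiles of each called reductase. *CHIL*, *5MAT*, *TT15*, *KFB-CHS*, *UGT78D1*, *UGT78D2*, *UGT78D3*, *SBT1.7*, *IKU2*, *ALC*, AT2G23910 and AT5G14700 fall outside that rule, and the choice to name them came after seeing their values. The loci and lists were chosen with earlier results of these data known, and the relatives of the reductases were listed after the annotation was read. Alternatives were no fold limit, a 1.5-fold limit, unadjusted p, the compared groups alone, trended robust variances, array weights, median centring, repeated quantile normalization, omission of dim or several-gene probe sets, a replicate block, the 3′ minus 5′ signal as a covariate, and omission of each array.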

Additional observations from a re-analysis of the deposited data

Results flagged for a closer look

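Among the listed pathway and marker genes, 4 had hypoxia responses that differed between the genotypes by more than 2-fold, given as AtHb1 minus WT on the log2 scale with the adjusted p of limma's interaction. *TT3* and *BAN* were not among them. Over all probe sets, 0.497% were called higher and 1.51% lower in the interaction. For *PAP2* the difference was 1.38 (SE 0.21, adjusted p = 8.50e-04), with the larger fall in WT. For *LBD37* it was -1.48 (SE 0.28, adjusted p = 0.00414), with the rise in WT. For *PMEI6* it was 1.06 (SE 0.19, adjusted p = 0.00302), with the fall in WT. It was 0.87 without WT control replicate 3, 0.98 without WT hypoxia replicate 1 and 0.97 without AtHb1 control replicate 1, each below 2-fold. For *EM1* it was -4.39 (SE 1.03, adjusted p = 0.0131), and its arrays spread widely within groups, at 6.28, 9.31 and 9.41 in AtHb1 control and 5.75, 5.33 and 7.83 in AtHb1 hypoxia. All 4 genes were named only through the study's table of called genes, so their count cannot be weighed against the shares over all probe sets. With 3 arrays per group, no test for single arrays far from their group was made.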

How the results depend on the processing

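The count of reductases called lower at control was 1, and it became 2 with no fold limit or a 1.5-fold limit and 0 with the 3′ minus 5′ signal as a covariate. Under hypoxia it was 2, became 0 with that covariate, and ranged from 1 to 2 when each array was left out. For hypoxia in WT it was 0 and became 1 (*BAN*) with no fold limit. The interaction of *TT3*, 0.03, was -0.02 without AtHb1 control replicate 2 and without AtHb1 hypoxia replicate 3, and ranged from -0.02 to 0.11 over the arrays left out. Over all probe sets, the covariate reduced the genotype calls from 273 higher and 221 lower to 11 and 21 at control, and from 180 and 216 to 0 and 0 under hypoxia. In AtHb1 the hypoxia calls of 153 higher and 101 lower were 162 and 66 without AtHb1 control replicate 2 and 165 and 66 without AtHb1 hypoxia replicate 2; the cause was not tested. The labels tie same-numbered arrays of different groups by number alone. Their deviations from the group means correlated at -0.134 to 0.124 in 18 pairs, 2 of them over 0.1. Such correlations cannot show whether same-numbered arrays shared a treatment run. With the replicate block *TT3* was -1.08 at control and -1.04 under hypoxia, *BAN* was -0.89 and -1.07, and no reductase call changed. Each measured locus had 1 named probe set, so the mean over probe sets gave no other value. Signal over background limits what can be said of *UGT78D3*, and 3 arrays per group limit the precision of every difference.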
